A study of Mus musculus with 12 samples.

Results

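The chemokine system of mouse liver was followed through 56 genes, 37 ligands and 19 receptors. They are read by 73 of the 41174 non-control probes of a one-colour Agilent whole-mouse array, which carries 28780 different gene names. A gene was taken as a member where its name on the array, or the current symbol of its RefSeq accession, starts with Ccl, Cxcl, Xcl, Cx3cl, Ccr, Cxcr, Xcr or Cx3cr followed by a number. No measured value entered that choice. By this rule Pf4 and Ppbp, platelet chemokines that the array calls Cxcl4 and Cxcl7, are members too. The series holds 12 liver samples, 4 each from mice injected with AAV-hGRB, an adeno-associated virus carrying human glucocorticoid receptor (GR) beta, with AAV-GFP, the same kind of vector carrying green fluorescent protein, or with PBS. All were male C57BL/6 mice of 3 months with a knockout of GR in the liver, and no wild-type group was analysed here, so all 3 groups share that deletion. The sources used here do not give the Cre line behind the knockout, the promoter of the vectors, their dose or the time between injection and sampling. Nothing in the labels states that different samples are different animals, and p-values therefore describe sample-to-sample spread, which may be technical.

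Chemokines are small secreted proteins that direct the migration of leukocytes along concentration gradients. They act on receptors with several membrane-spanning helices coupled to inhibitory G proteins. Inflammatory ligands are made on demand after interferon, tumour necrosis factor or interleukin-1, whereas homeostatic ligands are made constitutively and position resting cells. In liver, hepatocytes, Kupffer cells, sinusoidal endothelium and stellate cells make ligands, and the receptors are read mostly from resident and infiltrating leukocytes. Ligated GR alpha is a known repressor of many inflammatory chemokine genes. GR beta is a splice form that does not bind glucocorticoids, and the title of the series asks what it does where GR alpha is missing.

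Each probe's level below is its log2 intensity relative to the 75th percentile of its own array, so the level of a dim probe is negative. Levels compare arrays for 1 probe and are not compared between probes. The hepatocyte markers were well above background for 9 of 9 genes on the array, and the brightest of 4 probes of Nr3c1, the gene of GR, lay between 0.27 and 0.58 in AAV-hGRB, 0.05 and 0.48 in AAV-GFP, and 0.14 and 0.49 in PBS. Those probes are not stated to lie in the deleted part, so they check nothing about the knockout. AAV-GFP replicate 3 stood apart, with a 75th percentile of 7.71 (log2 intensity) against 8.45 to 9.22 on the other arrays and the fewest probes well above background (22600, where the highest count was 27317). The arrays lie on 6 slides. Slides 5 and 6 hold 1 array of each group, slide 1 holds an AAV-GFP and a PBS array, and the rest hold 1 group each. Slide 3 holds AAV-hGRB replicates 2 and 4 with no control array. AAV-GFP replicate 4, alone on slide 4, was the only array scanned on day 2. For those arrays slide or scan day cannot be told apart from group.

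Of the 56 genes, 31 were well above background on all 12 arrays (22 ligands and 9 receptors), and 42 were well above background on at least 4 arrays and were tested (28 ligands and 14 receptors). The other 14 genes were not tested. Of those, Cxcl2 and Cxcl5, ligands of the neutrophil receptor CXCR2, Ccl11, the eosinophil attractant eotaxin, Ccl22, a CCR4 ligand, and the receptor Ccr1 were not well above background on any array. Ccl1, Ccl20, Cxcl3, Cxcl15, Cxcl17, Ccr4, Ccr8, Ccr10 and Cxcr1 were above it on 1 to 3 arrays. No member probe was saturated.

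In AAV-hGRB livers the CXCR3 ligands Cxcl9 and Cxcl10 and the inflammatory ligands Ccl3, Ccl4 and Ccl5 stood highest against AAV-GFP. Cxcl10 averaged 2.77-fold, Ccl3 3.35-fold, Ccl4 3.09-fold, Cxcl9 2.35-fold and Ccl5 2.21-fold higher. The folds of Ccl3 and Ccl4 depend on the background correction: with normexp their log2 changes were 0.55 and 0.75, against 1.74 and 1.63 here, and Ccl3 was not well above background on 2 of 4 AAV-GFP arrays. None passed the test: 0 of 42 genes had an adjusted p under 0.05 (limma with Benjamini-Hochberg adjustment over 26593 probes, lowest adjusted p 0.998), and over all probes the share called was 0.0%. At an unadjusted p under 0.05 these 5 genes were higher, 11.9% of those tested, and 0 were lower. Over all probes the same shares were 1.84% higher and 1.51% lower. The values of the AAV-hGRB group lay wholly above those of AAV-GFP for 2 genes, Cxcl9 and Cxcl10 (4.76%), where all probes gave 1.05%. The median change of the 42 genes was 0.23 (24 above 0, 18 below), beside -0.05 over all probes tested.

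The plot of changes by role places the higher genes together. The CXCR3 ligands had 3 of 3 above 0 with a median change of 1.24, and the inflammatory ligands Ccl3 to Ccl9 had 4 of 5 above 0 with a median of 1.15. The ligands of the Ccl2 cluster had 3 of 4 above 0 (median 0.37), the receptors 9 of 14 (0.23), and the homeostatic and barrier ligands 2 of 10 (-0.20). Among the 9 receptors above 0, Ccr7 and Cxcr4 met the filter only with their AAV-hGRB arrays. They lend no support to this count or to the 24 of 42 genes above 0. All these role lists were drawn up with earlier results of these data known.

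**Figure D1:**
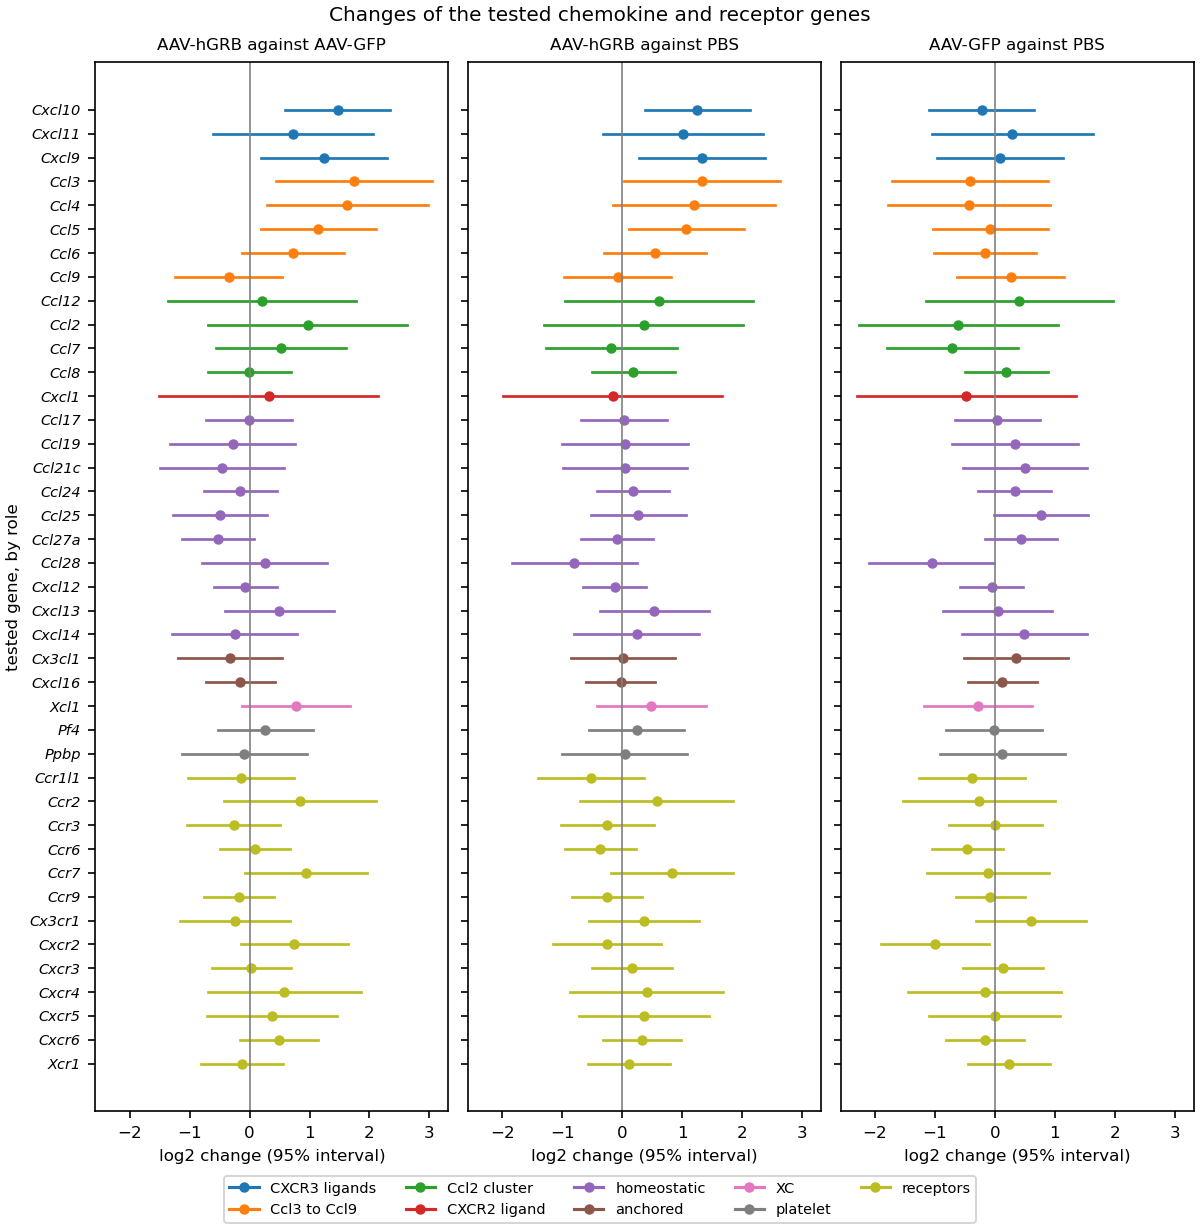
Changes of 41 of the 42 tested genes (log2, points, with 95% intervals from limma as lines) in the 3 comparisons, with genes down the page by role. The intervals of Cxcl9, Cxcl10, Ccl3, Ccl4 and Ccl5 lie above 0 in AAV-hGRB against AAV-GFP, and no gene shown had an adjusted p under 0.05.

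Cxcl9, Cxcl10 and Cxcl11 are interferon-induced ligands that draw CXCR3-bearing T and NK cells. They are neighbours on chromosome 5, where the array's probes for Cxcl9 and Cxcl10 lie at 92310412 to 92310471 and 92334002 to 92334061 on the minus strand (mm7, the build of the array design). Ccl3 lies on chromosome 11, where its probe covers 83717761 to 83717820, also on the minus strand. The promoters below run from 250 bases before to 50 bases after the RefSeq start in GRCm38.p6. They were taken for the CXCR3 ligands and for the 5 members of lowest unadjusted p against AAV-GFP, where an entry exists. The set was chosen after the values of these genes were seen. Cxcl9 (chr5:92328030-92328329), Cxcl10 (chr5:92348840-92349139) and Ccl3 (chr11:83649329-83649628) are each given 5′ to 3′ on the gene's strand, the minus strand. Capitals mark the interferon response element GAAANNGAA on either strand and the NF-kappaB consensus.
Cxcl9: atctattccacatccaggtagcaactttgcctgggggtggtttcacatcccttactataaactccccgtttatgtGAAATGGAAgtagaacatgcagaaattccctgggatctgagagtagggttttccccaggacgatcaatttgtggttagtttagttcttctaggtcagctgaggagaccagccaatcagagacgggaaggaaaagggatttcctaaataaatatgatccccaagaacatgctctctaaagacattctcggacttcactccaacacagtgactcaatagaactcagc
Cxcl10: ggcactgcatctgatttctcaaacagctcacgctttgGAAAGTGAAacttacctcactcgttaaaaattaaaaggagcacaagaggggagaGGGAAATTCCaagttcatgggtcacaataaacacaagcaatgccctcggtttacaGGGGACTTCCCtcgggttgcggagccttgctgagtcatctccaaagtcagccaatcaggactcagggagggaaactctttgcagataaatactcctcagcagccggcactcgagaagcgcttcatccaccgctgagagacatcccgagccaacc
Ccl3: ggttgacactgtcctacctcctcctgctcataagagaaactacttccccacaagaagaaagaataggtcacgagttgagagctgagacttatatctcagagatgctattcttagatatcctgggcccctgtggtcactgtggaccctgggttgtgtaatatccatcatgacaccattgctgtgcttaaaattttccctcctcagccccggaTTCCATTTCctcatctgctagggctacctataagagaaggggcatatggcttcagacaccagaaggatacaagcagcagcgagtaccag
Cxcl9 holds 1 interferon response element, at positions -175 to -167 from the start. Cxcl10 holds 1 as well, at -213 to -205, and 4 matches to the NF-kappaB consensus, of which the 3 from -104 to -94 overlap and include a site read on both strands. Ccl3 holds 1 interferon response element, on the opposite strand at -39 to -31, and 0 matches to NF-kappaB. Among 32851 RefSeq promoters of this length, 8.56% hold the element and 8.46% the NF-kappaB consensus. Of the 41 member genes with a promoter in the table, 8 (19.5%) hold the element and 11 (26.8%) the consensus. A member gene counts if any of its promoters matches, whereas the shares over all count each promoter, so they are not strictly alike. Among the 31 tested member genes with a promoter, 6 hold the element and 6 the consensus. A match describes the letters of the window and is not a measured site. Cxcl11, Ccl4 and Ccl5 have no entry and are not shown.

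Cxcl10 had levels of 0.50, 2.20, 2.50 and 0.88 in AAV-hGRB replicates 1 to 4, against -0.51, 0.12, 0.27 and 0.34 in AAV-GFP and 0.01, 0.37, 0.28 and 0.43 in PBS. Every AAV-hGRB array was above every array of both control groups, with replicates 2 and 3 far above and replicates 1 and 4 close to them. The change against AAV-GFP was 1.47 ± 0.40 (SE), with an adjusted p of 0.998 and an unadjusted p of 0.00325 by limma. An exact permutation test over the 70 arrangements of 4 against 4 arrays gave 0.0286, the smallest p it can give.

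Cxcl9 had levels of 0.86, 2.20, 2.47 and 1.76 in AAV-hGRB, against 0.29, 0.68, 0.75 and 0.64 in AAV-GFP and -1.09, 0.88, 0.88 and 1.34 in PBS. All 4 AAV-hGRB arrays were above AAV-GFP, replicate 1 by a small margin, while PBS replicates 2, 3 and 4 exceeded AAV-hGRB replicate 1. Its change against AAV-GFP was 1.24 ± 0.48 (SE, unadjusted p 0.0248 and adjusted p 0.998 by limma, exact permutation p 0.0286).

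Cxcl11 had levels of 1.13, 0.06, -0.43 and -1.54 in AAV-hGRB, against -1.19, -1.70, 0.85 and -1.63 in AAV-GFP and -1.07, -1.13, -0.76 and -1.87 in PBS. The groups overlapped, and the array order was unlike that of the other pair, with AAV-hGRB replicate 1 highest and replicate 4 lowest. The change was 0.72 ± 0.61 (SE, unadjusted p 0.262 by limma).

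**Figure D2:**
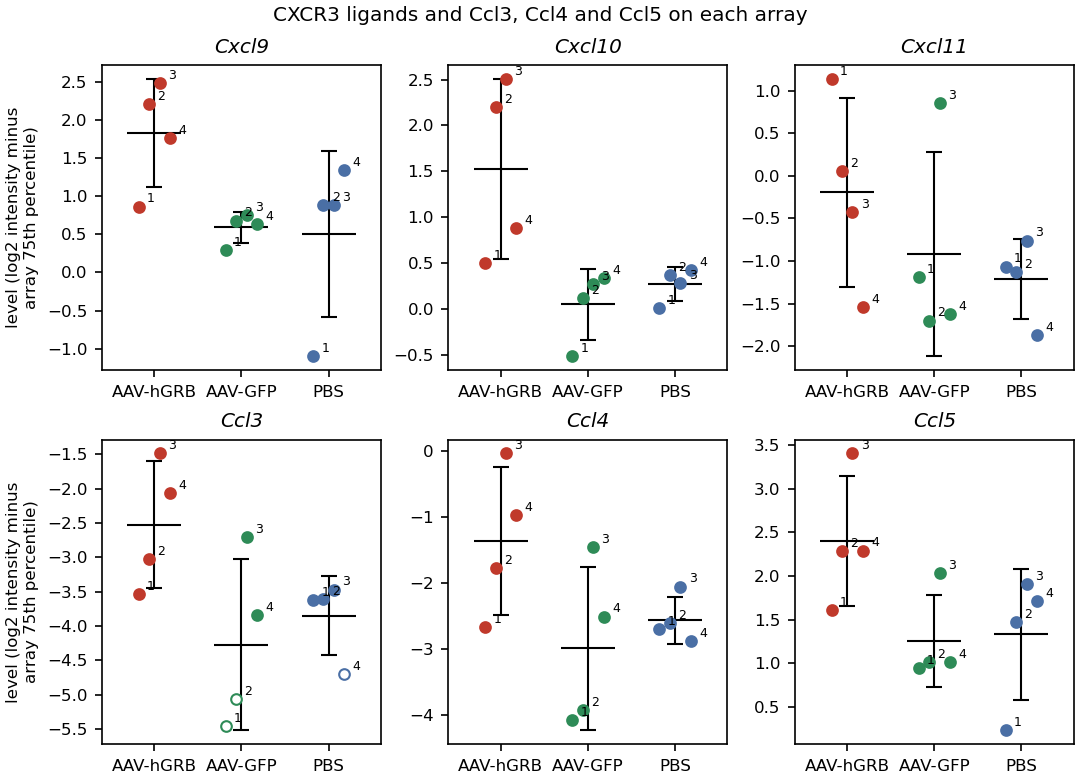
Levels (log2 intensity relative to the 75th percentile of the array) of 6 ligands on each array, numbered by replicate. Bars show the group mean ± SD of 4 arrays, and open points were not well above background. Cxcl10 on all AAV-hGRB arrays lies above all AAV-GFP and PBS arrays, and the groups overlap for Cxcl11, Ccl3, Ccl4 and Ccl5.

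Ccl3, Ccl4 and Ccl5 are inflammatory ligands made by macrophages, T cells and NK cells. Ccl3 had levels of -3.54, -3.02, -1.49 and -2.06 in AAV-hGRB, against -5.46, -5.06, -2.71 and -3.85 in AAV-GFP and -3.62, -3.61, -3.47 and -4.70 in PBS. It was well above background on 4 AAV-hGRB, 2 AAV-GFP and 3 PBS arrays, and AAV-GFP replicate 3 lay within the AAV-hGRB range. The change against AAV-GFP was 1.74 ± 0.60 (SE, unadjusted p 0.0129 by limma, exact permutation p 0.114).

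Ccl4 had levels of -2.67, -1.76, -0.03 and -0.97 in AAV-hGRB, against -4.07, -3.92, -1.46 and -2.50 in AAV-GFP and -2.70, -2.60, -2.05 and -2.87 in PBS. It was well above background on all arrays. AAV-hGRB replicates 2, 3 and 4 were above all PBS arrays, AAV-hGRB replicate 1 lay among them, and AAV-GFP replicate 3 exceeded AAV-hGRB replicates 1 and 2. The change against AAV-GFP was 1.63 ± 0.62 (SE, unadjusted p 0.0216 by limma, exact permutation p 0.143).

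Ccl5 had levels of 1.61, 2.29, 3.41 and 2.29 in AAV-hGRB, against 0.95, 1.01, 2.04 and 1.02 in AAV-GFP and 0.23, 1.47, 1.90 and 1.72 in PBS. The groups overlapped only where AAV-GFP replicate 3 and PBS replicates 3 and 4 exceeded AAV-hGRB replicate 1. The change against AAV-GFP was 1.15 ± 0.44 (SE, unadjusted p 0.0227 by limma, exact permutation p 0.0571), and a second probe gave 1.22 with an unadjusted p of 0.0276. For Cxcl9, Cxcl10, Ccl3, Ccl4 and Ccl5, AAV-hGRB replicate 3 was the highest of its group and replicate 1 the lowest.

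In bulk RNA, fewer cells of a type and less RNA per cell cannot be told apart, so leukocyte markers are given beside these ligands. Of 18 tested T and NK cell markers, 12 were higher against AAV-GFP (median change 0.36), and their summed linear level, in units of the array's 75th percentile, was 4.88 to 6.88 in AAV-hGRB, 4.65 to 5.50 in AAV-GFP and 4.37 to 6.26 in PBS. Their changes ran from -0.87 ± 0.56 for Cd247, a chain of the T cell receptor complex, to 1.52 ± 0.65 for Gzma, a granzyme of cytotoxic cells (SE). An unadjusted p under 0.05 by limma was reached by 3 of the 18, beside 1.84% of all probes higher and 1.51% lower. Cd3e of the same receptor complex gave 0.02 ± 0.30 and Ncr1, an NK cell receptor, -0.66 ± 0.52 (SE), and Klrk1 was not well above background on any array. All 15 tested Kupffer cell and macrophage markers were above 0 (median 0.28), with sums of 157 to 316 in AAV-hGRB, 139 to 266 in AAV-GFP and 80.4 to 236 in PBS. Of 6 tested dendritic cell markers, 5 were higher (median 0.36), with sums of 122 to 239 in AAV-hGRB, 72.8 to 130 in AAV-GFP and 57.9 to 106 in PBS. Those sums rest mostly on Bst2, which interferon also induces, and Siglech was not well above background on any array. B and plasma cell markers had 3 of 7 higher (median -0.05, with sums of 11.0 to 17.0 in AAV-hGRB, 6.91 to 18.5 in AAV-GFP and 14.8 to 32.0 in PBS, and Blk not well above background on any array). The number of markers called was 0 in each list and each comparison, and their part in the chemokine values was not tested.

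**Figure D3:**
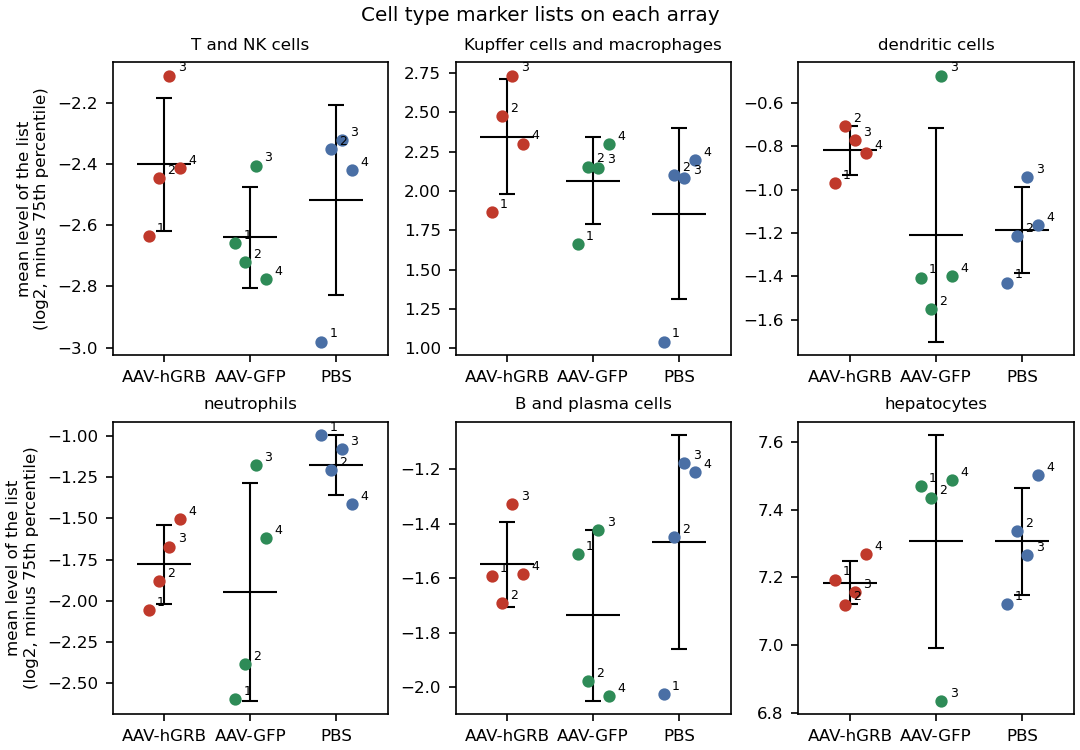
Mean level (log2 intensity relative to the 75th percentile of the array) of 6 cell type marker lists on each array, numbered by replicate, with the group mean ± SD of 4 arrays. The macrophage list has its highest array in AAV-hGRB (replicate 3) and its lowest in PBS (replicate 1), and the groups overlap.

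Single arrays moved the count of genes with an unadjusted p under 0.05. Without AAV-GFP replicate 3, 10 of 42 genes were higher at that threshold, beside 4.24% of all probes, and the median change was 0.34. Without AAV-hGRB replicate 3 the count was 2 (4.76%), beside 1.49% of all probes. Without AAV-GFP replicate 1 it was 2, beside 2.18%, with 1 gene lower, beside 2.02%. Without AAV-GFP replicate 2 it was 3 (7.14%), beside 1.29%. Within slides 5 and 6, the differences of AAV-hGRB minus AAV-GFP were 0.38 and 2.23 for Cxcl10, 0.18 and 1.72 for Cxcl9, 1.53 and 1.22 for Ccl3, 1.25 and 1.43 for Ccl4, and 0.60 and 1.37 for Ccl5. All 5 were above 0 on both slides. For Cxcl9 and Cxcl10 that was bound to happen, since their AAV-hGRB arrays lay wholly above the AAV-GFP arrays. The 5 genes were picked by their values on these same arrays, and each slide difference is 1 array minus 1 array. The tally is therefore no separate support. Cxcl11 gave 2.83 on slide 5 and -1.28 on slide 6, and the median of the 42 genes was 0.32 on slide 5 and -0.32 on slide 6, where all probes gave -0.0036 and -0.33. Slide 5 holds AAV-hGRB replicate 1 and AAV-GFP replicate 2. Slide 6 holds AAV-hGRB replicate 3 and AAV-GFP replicate 3, the array with the lowest 75th percentile. A difference between the slides cannot be told apart from these single arrays. With the slide as a fixed block the median was 0.08, with 22 genes above 0 and 20 below. In that fit 4 of 42 genes were higher at an unadjusted p under 0.05 by limma (9.52%), beside 1.37% of all probes. None was lower, beside 1.99%.

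Ccl2, Ccl7 and Ccl12 draw monocytes through CCR2, and Ccl12 is known from mouse. Ccl2 had levels of -0.64, -0.53, 1.18 and 1.42 in AAV-hGRB, against -2.71, -1.26, 0.81 and 0.70 in AAV-GFP and 0.87, 0.13, -0.19 and -0.82 in PBS. Each group spread over more than the distance between the means, and the change against AAV-GFP was 0.97 ± 0.76 (SE, unadjusted p 0.227 by limma). Ccl7 differed by 0.53 ± 0.50 and Ccl12 by 0.21 ± 0.72 (SE), where Ccl12 was well above background on 8 of 12 arrays. Cxcl1, a neutrophil attractant and the 1 gene tested of the 5 listed for CXCR1 and CXCR2, had levels of 2.20, 2.06, 3.64 and 0.17 in AAV-hGRB, against -0.21, 1.55, 3.73 and 1.74 in AAV-GFP and 2.27, 2.71, 2.92 and 0.82 in PBS. Its change of 0.32 ± 0.84 (SE) was smaller than the spread within each group.

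Among ligands with homeostatic roles, Cxcl12, the ligand of CXCR4, was well above background on every array. Its levels were 5.53, 4.94, 5.65 and 5.56 in AAV-hGRB, 5.56, 5.87, 5.45 and 5.08 in AAV-GFP, and 5.99, 5.28, 5.48 and 5.42 in PBS. The groups overlapped, and the change against AAV-GFP was -0.07, with a 95% interval of -0.59 to 0.46. Ccl9, a mouse CCR1 ligand, is listed with the inflammatory ligands Ccl3 to Ccl9 and was the 1 of those 5 below 0. It had levels of 4.05, 3.72, 3.89 and 4.22 in AAV-hGRB, 4.40, 4.72, 3.56 and 4.58 in AAV-GFP, and 3.07, 4.07, 3.75 and 5.31 in PBS. Its change was -0.34 ± 0.41 (SE). The membrane-anchored ligands gave -0.15 ± 0.26 for Cxcl16, which binds CXCR6, and -0.33 ± 0.40 for Cx3cl1, which binds CX3CR1. A second probe of Cxcl16 gave 0.66, so its probes disagreed in sign. Ccl19, Ccl21c and Ccl27a have near-identical gene copies that the array may not separate.

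The receptors gave no gene with an unadjusted p under 0.05 in AAV-hGRB against AAV-GFP. Cxcr3, the receptor of Cxcl9, Cxcl10 and Cxcl11, had levels of -1.41, -1.46, -1.18 and -2.002 in AAV-hGRB, against -1.83, -1.65, -0.71 and -1.99 in AAV-GFP and -2.18, -1.57, -1.26 and -1.71 in PBS. The groups overlapped, and its change was 0.03, with a 95% interval of -0.63 to 0.70. Ccr2, the monocyte receptor, differed by 0.84 ± 0.58, Cxcr6 by 0.50 ± 0.30 and Cx3cr1 by -0.24 ± 0.42 (SE). Cx3cr1 was well above background on 7 of 12 arrays, so its change rests partly on values near the floor. A second probe of Cx3cr1, well above background on 5 arrays, gave 0.50, the opposite sign. Cxcr4 was well above background on 3 AAV-hGRB, 2 AAV-GFP and 1 PBS arrays. It met the filter only with its AAV-hGRB arrays, so its change is not read.

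**Figure D4:**
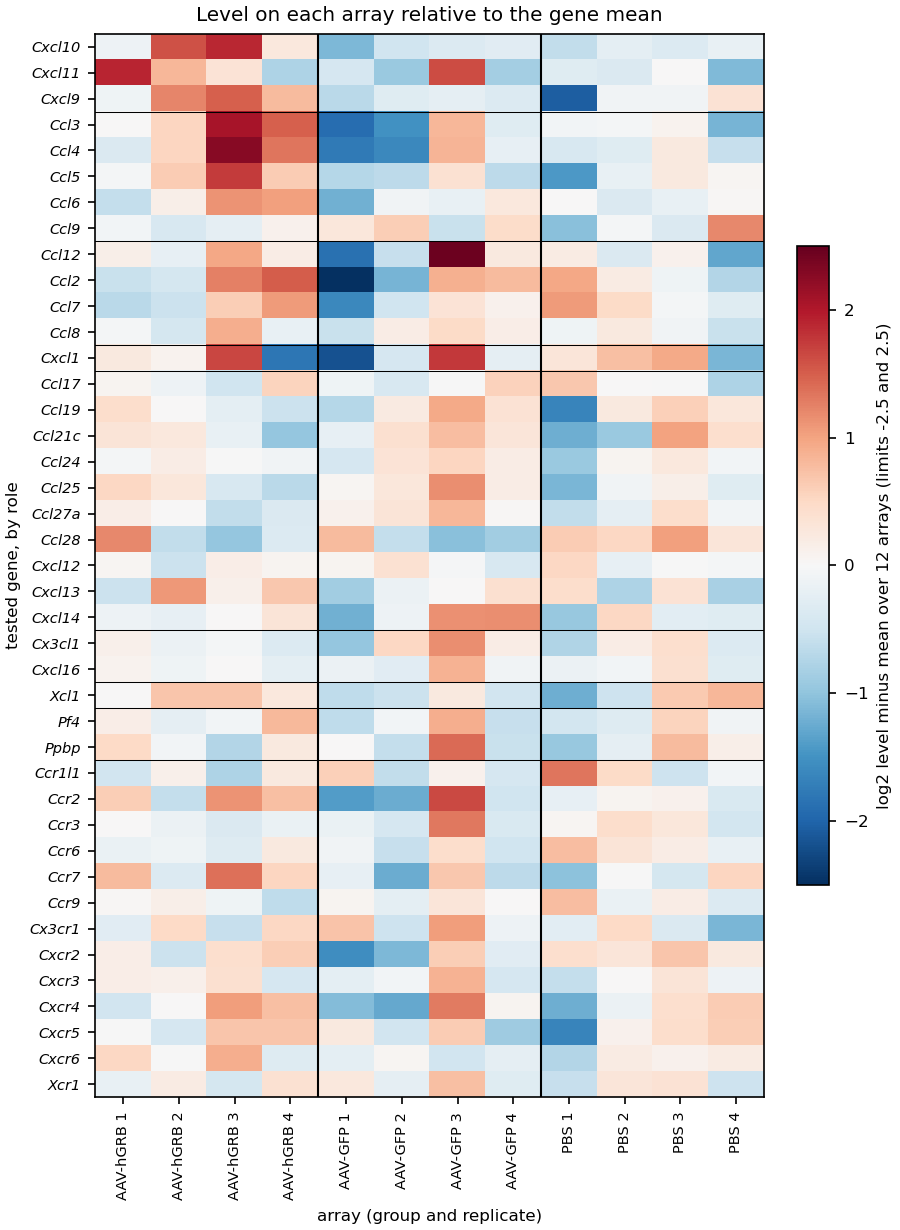
Level of 41 of the 42 tested genes on each array minus its mean over 12 arrays (log2, colour scale cut at -2.5 and 2.5), with genes by role down the page and arrays by group across it. Cxcl9, Cxcl10, Ccl3, Ccl4 and Ccl5 are highest on AAV-hGRB replicate 3, and AAV-GFP replicate 3 is the highest AAV-GFP array for 31 of the 41 genes shown.

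Against PBS the same AAV-hGRB arrays gave 4 genes higher at an unadjusted p under 0.05 and 0 lower (9.52% of 42), beside 2.86% higher and 2.98% lower over all probes. The AAV-hGRB arrays are shared by both comparisons, so the comparisons are not independent. Cxcl10 differed by 1.25 ± 0.40, Cxcl9 by 1.32 ± 0.48, Ccl5 by 1.07 ± 0.44, Ccl3 by 1.32 ± 0.60 and Ccl4 by 1.20 ± 0.62 (SE). In that order, the unadjusted p by limma was 0.009, 0.0176, 0.0314, 0.047 and 0.0764. The exact permutation test gave 0.0286, 0.114, 0.0857, 0.0571 and 0.0857, so of these genes only Cxcl10 was under 0.05 by that test. With normexp background correction the change of Ccl3 was 0.51. Over all alternatives the change of Ccl4 against PBS ran from 0.66 to 1.63. None passed the test (0 of 42 genes, lowest adjusted p 0.792, and 0.0% of all probes). Cxcl10 was the gene whose AAV-hGRB arrays lay wholly above the PBS arrays (2.38% of 42 genes), where all probes gave 2.14%. The median change was 0.22 (30 above 0, 12 below), beside -0.06 over all probes. Without PBS replicate 1 the median was 0.02 (25 above 0, 17 below), beside -0.06 over all probes. Markers of other cells stood beside these values against PBS too: all 15 Kupffer cell and macrophage markers were above 0 (median 0.49), as were 4 of 6 dendritic cell markers (0.53), 9 of 18 T and NK cell markers (0.03), 3 of 7 B and plasma cell markers (-0.22) and 0 of 6 neutrophil markers (-0.49). The mean level of the macrophage list was 1.04 on PBS replicate 1, against 2.08 to 2.20 on the other PBS arrays. The part of these markers in the chemokine values was not tested.

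Cxcl11 differed by 1.01 ± 0.61 against PBS (SE), short of the unadjusted threshold. Ccr7, the lymph node homing receptor, was well above background on 4 AAV-hGRB, 1 AAV-GFP and 2 PBS arrays. It met the filter only with its AAV-hGRB arrays, so its change is not read. Within slides 5 and 6, the differences of AAV-hGRB minus PBS were 0.07 and 2.22 for Cxcl10, -0.48 and 1.59 for Cxcl9, -0.10 and 1.50 for Ccl5, 1.17 and 1.98 for Ccl3, and 0.21 and 2.02 for Ccl4. Cxcl9 and Ccl5 thus had opposite signs on the 2 slides. With the slide as a fixed block, 0 of 42 genes had an unadjusted p under 0.05 beside 1.46% of all probes higher, and the median change was -0.0018. Without AAV-hGRB replicate 3 the count was 1, and its share of 2.38% lay below the 2.65% of all probes that were higher. Without PBS replicate 1 it was 2 (4.76%), beside 2.37%. Without AAV-hGRB replicate 1 it was 6 (14.3%), beside 2.05%, with 1 gene lower, beside 2.28%.

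AAV-GFP against PBS sets the vector with its reporter beside PBS, and AAV-GFP replicate 4 was alone on its slide and scan day. This comparison gave 0 members higher at an unadjusted p under 0.05, beside 0.793% of all probes, and 2 lower, Cxcr2 and Ccl28. Both were well above background on 1 of 4 AAV-GFP arrays, and Ccl28 entered the test through its PBS arrays alone, so their count is not read against the 0.891% of all probes that were lower. None passed the test (0 of 42, lowest adjusted p 0.999, and 0.0% of all probes). The genes divided evenly, with 21 above 0 and 21 below, and without AAV-GFP replicate 3 the median change was -0.24. Leaving out AAV-GFP replicate 2 or PBS replicate 1 gave 0 genes at that threshold. Leaving out AAV-GFP replicate 1 gave 4, of which 3 were higher (7.14%, beside 1.16% of all probes) and 1 lower, beside 1.34%. Cxcr2, the neutrophil receptor, had levels of -5.56, -5.14, -3.40 and -4.29 in AAV-GFP, against -3.60, -3.70, -3.32 and -3.76 in PBS. Its change was -1.001 ± 0.41 (SE, unadjusted p 0.0317 by limma, exact permutation p 0.114), but its second probe gave -0.15, normexp background correction gave -0.20, and only AAV-GFP replicate 4 of the AAV-GFP arrays was well above background.

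Ccl28, a mucosal ligand of CCR10, had levels of -3.88, -5.27, -5.72 and -5.55 in AAV-GFP, against -4.04, -4.15, -3.65 and -4.37 in PBS. It was well above background on 1 AAV-hGRB array, 1 AAV-GFP array and all 4 PBS arrays, so only its levels are given. AAV-GFP replicate 1 lay among the PBS arrays and the other AAV-GFP arrays below them. Ccl25, a ligand of CCR9, differed by 0.77 ± 0.36, Ccr6 by -0.46 ± 0.27 and Ccl27a by 0.44 ± 0.28 (SE), all short of the unadjusted threshold. Within slides 1, 5 and 6 the differences for Cxcr2 were -1.86, -1.37 and -0.08. Beside Cxcr2, neutrophil markers had 1 of 6 above 0 with a median change of -1.09, and their summed level was 4.71 to 11.7 in AAV-hGRB, 2.33 to 9.32 in AAV-GFP and 8.35 to 14.3 in PBS. Their part in the value of Cxcr2 was not tested.

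The other genes of the pathway gave no called gene in any comparison. Of 10 inducers and processing enzymes, 8 were higher in AAV-hGRB against AAV-GFP (median 0.20). Ifng, the type II interferon, differed by 0.26 ± 0.45 and Tnf by 0.34 ± 0.43 against AAV-GFP, and Il1b by -0.10 ± 0.47 (SE). Of 16 tested signalling genes below the receptors, 10 were higher (median 0.20), and of 5 atypical or related receptors, 2 were higher (median -0.32).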

How the data were processed

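Liver RNA of 12 samples (3 groups of 4) was labelled with Cy3 and hybridised to 1 array each. The deposited scanner files hold spot intensity. Agilent Feature Extraction (9.5.3.1 per the file headers, 9.5 per the submitters' processing notes) subtracted a fitted spatial background surface, detrended each array and gave spots not above background a surrogate value. The deposited matrix holds the same 540216 values within a relative 1e-06.

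Processed intensities were put on the log2 scale, averaged over the spots of a probe, and scaled to the array's 75th percentile. Probes well above background on at least 4 of 12 arrays were tested (26593 of 41174) in a single limma fit of 3 groups (limma 3.58.1, R 4.3.3, two-sided, 9 residual degrees of freedom) with Benjamini-Hochberg adjustment and a threshold of 0.05. A fold is 2 to the power of the log2 change. The number of arrays limits the precision (median standard error 0.31). The fit was checked on simulated data.

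The brightest probe stands for a gene. Of the member probes, 66 were named by RefSeq accession and 7 by array name. Named genes are the 5 of lowest unadjusted p in each comparison, the 5 of highest mean signal and an overlapping list of 19 genes. Other genes are named by count or for a role. The members and lists were chosen with earlier results of these data known. Alternatives covered background correction, scaling, filter, slide, array weights, replicate block and each array left out. Within-slide values were added after seeing the data. Some genes are not reported here. Promoters come from the RefSeq table on GRCm38.p6.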

Additional observations from a re-analysis of the deposited data

Results flagged for a closer look

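Within the 3 groups of 25 genes, 75 groups of 4 arrays were examined for an array that stands far from its group, and 4 were found. Chance alone flags about 1 group in 20. Ccl3 on PBS replicate 4 was at -4.70, where the nearest PBS array was at -3.62, and that array was not well above background. Ccl5 on AAV-GFP replicate 3 was at 2.04, where the nearest AAV-GFP array was at 1.02. This is the array with the lowest 75th percentile. Cxcl12 on AAV-hGRB replicate 2 was at 4.94, where the nearest AAV-hGRB array was at 5.53. Cxcr6, the receptor of Cxcl16, was at -2.50 on PBS replicate 1, where the nearest PBS array was at -1.66.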

How the results depend on the processing

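The count of called chemokine and receptor genes was 0 in each of the 3 comparisons under all 23 alternatives. Over all probes, array weights gave 67 called in AAV-hGRB against PBS, where the other settings gave 0. The changes of Cxcl10 ranged from 1.14 to 1.81 against AAV-GFP, of Ccl3 from 0.55 to 2.26, of Ccl4 from 0.75 to 2.14, of Ccl5 from 0.81 to 1.41 and of Cxcl9 from 0.98 to 1.56, where the lowest adjusted p was 0.252. The median change of the tested genes ranged from 0.04 to 0.34 against AAV-GFP, from -0.0018 to 0.32 against PBS, and from -0.24 to 0.13 in AAV-GFP against PBS. With normexp background correction 32 of 42 genes were above 0 against AAV-GFP and 10 below, 3 genes had an unadjusted p under 0.05 (0.692% of all probes higher), and all probes shifted the same way (58.3% above 0, median 0.05, against 43.5% and -0.05 without it). With a replicate block the count called stayed 0, the medians were 0.23 and 0.22 and 7 and 5 genes were higher at an unadjusted p under 0.05 against AAV-GFP and against PBS, beside 2.08% and 3.11% of all probes. Array weights gave 10 genes higher at that threshold against AAV-GFP (23.8%), beside 6.16% of all probes. The correlations gave no ground to pair samples by replicate number. Of 12 pairs, 5 correlated above 0.1 (r from -0.43 to 0.59), and 4 of 12 samples correlated best with their own number. With so few arrays they cannot exclude a pairing. Without the filter on dim probes, 56 genes gave a median of 0.04 against AAV-GFP. Signal over background limits the 11 tested genes not well above background on every array.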
